A study of Mus musculus with 16 samples.

Results

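The ribosomal proteins measured here form 2 ribosomes, that of the cytosol and that of the mitochondrion. Members were the probe sets whose platform annotation gives exactly 1 gene symbol that is Rpl, Rps, Mrpl or Mrps followed by a number, with Rplp0 and Rpsa added, and without the ribosomal S6 kinases and annotated pseudogenes. Each gene was represented by its probe set of highest mean intensity over the 16 arrays. The rule found 125 probe sets of 96 genes, among 8251 genes with a probe set of 1 symbol. Of these, 35 were cytosolic, with 17 of the large and 18 of the small subunit, and 61 were mitochondrial, with 40 of the large and 21 of the small subunit. Subunits were assigned by gene symbol. A further 44 probe sets list a ribosomal protein gene together with pseudogenes or other genes, 39 of them cytosolic, and were not members. Of the 96 representing probe sets 13 carry a suffix other than the plain _at. Among them, those of Rps24 and Mrps18a end in _r_at. The probe sets of Rpl41, Rps28, Rps4l, Rpl7, Mrpl18, Mrpl48 and Mrps25 end in _f_at or _s_at, which mark probes that can match related transcripts. Since ribosomal protein genes have many processed pseudogenes, signal from near-identical copies cannot be told apart on such probe sets.

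Adult retina RNA was compared with cortex RNA of newborn mice on Affymetrix oligonucleotide arrays. The retina pool came from 350 C57/B6 mice, whose exact age the labels do not give, and the cortex pool from 19 mice at postnatal day 1, of the strain C57/B6 by the sample descriptions and Swiss-Webster by the series' design text. At the first site 5 arrays were hybridised per tissue and at site 2 another 3 per tissue, each with biotin-labelled cRNA from about 10 µg of total RNA, and the site 2 labels call their arrays technical replicates and give no pool size. The labels name no transgene or treatment for any group. The arrays of a tissue share 1 RNA pool, so every p-value below measures the spread between arrays and not between animals, and tissue, age and any strain difference cannot be told apart. Since the RNA is from whole tissue, fewer cells of a type and less RNA per cell cannot be told apart either.

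Ribosomes translate mRNA into protein and are built of a large subunit, which joins amino acids, and a small subunit, which reads the codons. The cytosolic ribosome serves nearly all genes of the cell, and the mRNAs of its proteins are among the most abundant of growing cells and are translated under the control of mTOR. The mitochondrial ribosome has a separate set of proteins, encoded in the nucleus and imported, and makes only the few hydrophobic subunits of the respiratory chain and ATP synthase that mitochondrial DNA encodes. Photoreceptors of the adult retina hold dense mitochondria in their inner segments, whereas the newborn cortex is a growing tissue of young neurons and dividing precursors.

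Intensities are given scaled to an array median of 100, and differences as log2(intensity + 16) after centring each array on its median. Intensities of different probe sets depend on their probes and are not compared as levels of their genes. The highest of 13 control probe sets for bacterial and yeast RNA that is not in the tissue read 12.6 to 37.0 scaled units across the arrays, and 25 cytosolic and 57 mitochondrial members were above it on all 16. The other 10 cytosolic members (Rpl32, Rpl35a, Rpl38, Rpl39, Rpl39l, Rps13, Rps14, Rps15, Rps20 and Rps27l) and 4 mitochondrial members (Mrpl14, Mrpl42, Mrpl49 and Mrps16) read at or under the controls on at least 1 array, and none of these 14 passed the test between tissues with all arrays. Tissue identity matched the labels: all 8 measured rod photoreceptor markers were above the controls on every retina array, with a summed intensity of 46560 to 54620 in the first site's retina against 90.3 to 129.5 in its cortex. The 4 measured markers of cortical projection neurons and all 5 of immature neurons were lower in retina at both sites, and of the 8 proliferation markers 6 were lower at the first site and 3 at the other. Erythroid markers summed to 747 to 878 in retina and 3258 to 3714 in cortex at the first site, and 3 of 4 lens and all 3 pigment epithelium markers were higher in retina. These cell types moved with every tissue difference below, and their part in it was not tested. One array stood apart, cortex replicate 2 of site 2, with a median intensity of 45.7 before scaling against 88.4 to 216.0 on the other 15.

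Promoters are shown because members of both ribosomes held the same short motif, that of ETS factors, more often than promoters in general. RefSeq windows of GRCm38.p6 from 250 bases before to 50 after a start were found for 82 of the 96 members, 28 cytosolic and 54 mitochondrial. The core CCGGAAG, the letters that ETS factors such as GABP bind, was searched on both strands and occurred in 12 of the 28 cytosolic and 19 of the 54 mitochondrial genes. By promoter these are 32.4% and 31.7%, against 8.86% of all promoters and 14.4% of promoters of genes on the array. The YY1 core AAGATGGC was in 18.9% and 16.7%, against 2.75% of all promoters and 3.73% of those of array genes. The NRF1 core GCGCATGC was in 5.41% and 6.67%, near the 4.51% of promoters of array genes, with 2.71% of all promoters. None of these motifs contains another, and a match of letters is no measured binding. Both cytosolic examples, Rps3a1 at chr3:86142649-86142728 on the minus strand and Rps7 at chr12:28635934-28636013 on the minus strand, belong to genes lower in retina at the first site, whose site 2 differences did not pass. The mitochondrial examples are Mrpl3 at chr9:105053208-105053287 on the plus strand, whose tissue difference did not pass the test, and Mrpl52 at chr14:54426849-54426928 on the plus strand, which was lower in retina at the first site. Each window runs 5′ to 3′ along the gene from 60 bases before to 20 after its start, and capitals mark the ETS core in either orientation.
Rps3a1: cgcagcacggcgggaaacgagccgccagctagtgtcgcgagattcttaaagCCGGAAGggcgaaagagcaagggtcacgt
Rps7: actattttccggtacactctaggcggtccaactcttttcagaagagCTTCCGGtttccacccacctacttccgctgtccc
Mrpl3: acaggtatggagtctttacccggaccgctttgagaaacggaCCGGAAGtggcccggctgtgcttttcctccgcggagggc
Mrpl52: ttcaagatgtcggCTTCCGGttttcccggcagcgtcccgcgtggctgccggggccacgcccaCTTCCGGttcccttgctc

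At the first site the cytosolic ribosomal protein genes that passed the test were all lower in adult retina than in newborn cortex. Of 35 members 15 were lower, 0 higher and 20 did not pass (limma, adjusted p under 0.05), and 15 of the 25 members above the controls were lower. Without centring the arrays, 6 of 35 were lower and 0 higher, with a median of -0.08 against 0.03 over all probe sets. The falls were led by Rps19, Rplp0 and Rpsa. With centring, 25.2% of all 12422 probe sets tested were lower and 21.9% higher, and of the 7358 above the controls on all arrays 32.8% and 29.2%. Among the brightest 5 percent of probe sets, a group looked at after the data were seen because most of these members are bright, 45.8% were lower and 30.9% higher. The median difference was -0.16 over the 35 members and -0.30 over the 25, against -0.05 over all probe sets and -0.16 over the brightest.

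Rps19, a small-subunit protein needed for subunit maturation and mutated in Diamond-Blackfan anaemia, showed the largest fall. Its 5 retina arrays of the first site read 1456, 1349, 1222, 962.1 and 815.0, and its cortex arrays 2892, 2779, 3186, 3574 and 3232. Every retina array was below every cortex array, a 2.71-fold difference (log2 -1.44 ± 0.14 SE, limma adjusted p = 2.5e-07). At site 2 retina read 1727, 2643 and 2392 and cortex 4084, 2215 and 3125. The groups overlapped there, since cortex replicate 2 fell among the retina arrays, and the difference of -0.42 did not pass (limma adjusted p = 0.31). Without that array it was -0.75 and passed (limma adjusted p = 0.0045).

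Rplp0, the protein on which the stalk that recruits elongation factors is assembled, was also lower. Retina arrays of the first site read 3264, 3525, 3277, 3578 and 3060 and cortex arrays 7659, 8031, 6404, 6880 and 7656. The gap between the groups was wider than either group, with a 2.17-fold difference (log2 -1.12 ± 0.08 SE, limma adjusted p = 5.1e-09). At site 2 the retina arrays, at 3855, 4424 and 4619, were again all below the cortex arrays, at 6006, 9626 and 4933, with a difference of -0.58 (limma adjusted p = 0.037). That site 2 call was lost in 8 of the settings tried, among them a pseudocount of 1 and leaving out any 1 retina array of site 2.

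Rpsa, the small-subunit protein also known as the laminin receptor precursor, read 977.0, 1072, 1066, 1037 and 972.9 in retina of the first site and 1913, 2004, 1682, 1852 and 1837 in its cortex. The groups did not overlap (log2 -0.84 ± 0.06 SE, limma adjusted p = 1.4e-08). At site 2 Rpsa read 1051, 1259 and 1290 in retina and 1724, 2615 and 1612 in cortex, again without overlap (log2 -0.66, limma adjusted p = 0.0098). Rpl22, a large-subunit RNA-binding protein, read 472.3, 430.3, 464.0, 417.3 and 411.5 in retina and 781.7, 708.9, 797.0, 786.8 and 692.3 in cortex of the first site. It too was lower on every retina array (log2 -0.75 ± 0.07 SE, limma adjusted p = 2.9e-07), and its site 2 difference of -0.59 was just past the threshold (limma adjusted p = 0.049). That site 2 call was lost in 9 of the settings tried. The other probe set of Rpl22, dimmer but above the controls on all 16 arrays, differed by -0.11 at the first site and -0.31 at site 2. Neither difference passed (limma adjusted p = 0.47 and 0.48), so the fall was seen on 1 of these 2 probe sets.

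Smaller falls at the first site were shared by proteins of both subunits. In the large subunit Rpl7a fell 1.48-fold, Rpl19 1.27-fold, Rpl6 1.26-fold and Rpl41, a very short basic protein, 1.24-fold. In the small subunit Rps7 fell 1.43-fold, Rps3a1 1.29-fold and Rps4x, the X-linked form of protein S4, 1.24-fold. For these 7 genes no retina array of the first site reached a cortex array. For all but Rpl41 the rule that named them asked for this, so it is no further result. At site 2 none of the 7 passed the test. The remaining calls were Rps10, Rps28, Rps18 and Rps3, with log2 differences of -0.38 to -0.19 and overlapping arrays on their representing probe sets. That of Rps28 ends in _f_at. A plain _at probe set of Rps28 differed by -0.57 without overlap (limma adjusted p = 6.8e-06), and by -0.07 at site 2, without passing. A dimmer one ending in _r_at differed by -0.16 at the first site and did not pass (limma adjusted p = 0.42). In the Rps4x fit the direction turned, to 0.01, when all probe sets of the gene were averaged. Without centring Rpl19, Rpl6, Rpl41, Rps3a1 and Rps4x did not pass. The Rpl41 call was also lost with quantile normalization and with all 16 arrays in one fit, its smallest difference being -0.10. By subunit, 6 of 17 large and 9 of 18 small members were lower and 0 higher, with medians of -0.14 and -0.24. The large-subunit share lower, 35.3%, was above the 25.2% of all probe sets. It was near the 32.8% of those above the controls and below the 45.8% of the brightest 5 percent, whose median was -0.16. In share lower and median the large subunit thus did not stand apart from the brightest probe sets, of which 30.9% were higher.

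**Figure D1:**
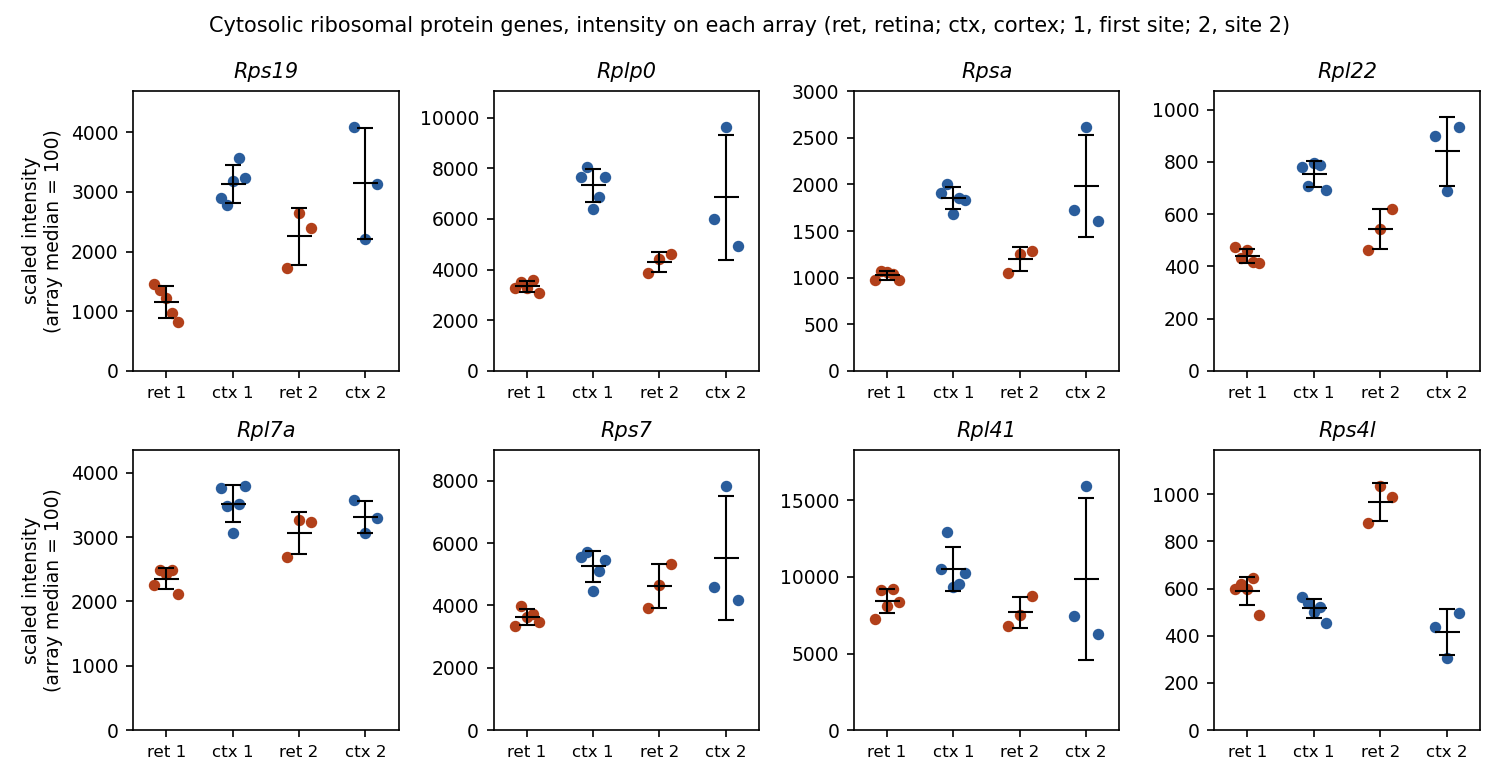
Scaled intensity (linear axis from 0, array median 100) of 8 cytosolic members on each of the 16 arrays, by tissue and site; points are arrays, bars the mean and SD. Rps19, Rplp0, Rpsa and Rpl22 separate by tissue at the first site, Rps4l is high in the retina of site 2 at 877.8 to 1033, and cortex replicate 2 of site 2 gives the highest point for Rplp0, Rpsa, Rps7 and Rpl41.

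At site 2 the cytosolic set gave 3 calls lower, those of Rplp0, Rpsa and Rpl22, and 1 higher, that of Rps4l, with 31 not passing (limma, adjusted p under 0.05). All 3 that were lower had been lower at the first site, and 13 of the first site's 15 kept a negative difference. Both sites measured the same pools, and no matching count over all probe sets is given here. Of all probe sets 15.9% were lower and 16.7% higher at site 2, and of those above the controls 20.2% and 22.6%. The median over the 35 members was -0.13, against -0.02 over all probe sets. Leaving out cortex replicate 2 of site 2 gave 4 lower and 3 higher and turned the median to 0.08, while that over all probe sets moved to 0.15 and their shares to 21.3% lower and 26.6% higher. Without it the 4 calls of the full set kept their direction, at -0.41 for Rplp0, -0.54 for Rpsa, -0.81 for Rpl22 and 0.97 for Rps4l. Leaving out retina replicate 1 of site 2 left 0 cytosolic calls lower, leaving out retina replicate 2 or 3 or cortex replicate 1 left 1, and leaving out cortex replicate 3 left 2. Of all probe sets 12.1%, 12.3% and 12.6% were lower without retina replicates 1, 2 and 3. Without cortex replicates 1 and 3 these were 14.1% and 14.0%.

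Rps4l, a gene named for its likeness to Rps4x, was the only cytosolic member called higher in retina with all 6 arrays of site 2. At that site its retina arrays read 877.8, 1033 and 986.2 and its cortex arrays 439.0, 306.6 and 497.4. The groups lay far apart (2.35-fold, log2 1.23 ± 0.22 SE, limma adjusted p = 0.0016). At the first site retina read 597.2, 618.2, 598.8, 643.4 and 487.9 and cortex 565.4, 537.1, 501.0, 521.4 and 453.3. There the groups overlapped and the difference of 0.19 did not pass (limma adjusted p = 0.077). Its probe set is one of those that can match related transcripts. The other probe set of Rps4l, dimmer but above the controls on all 16 arrays, differed by -0.04 at site 2 (limma adjusted p = 0.98), so the rise was seen on 1 of these 2 probe sets.

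The 4 like-named pairs with both partners measured can be set side by side for their tissue differences at the first site. Rps4x was lower by log2 -0.31 and Rps4l differed by 0.19, without passing. For Rpl7 the difference was -0.16 and for Rpl7l1, a nucleolar relative that acts in ribosome assembly, 0.13. Neither Rpl7 nor Rpl7l1 passed the test. Rps27 differed by -0.02 and Rps27l by -0.11, and Rpl39 by 0.22 and Rpl39l by -0.10, with Rps27l, Rpl39 and Rpl39l at or under the controls on most arrays. Mrpl12, the stalk protein of the mitochondrial ribosome, differed by -0.22 and did not pass (limma adjusted p = 0.18), beside the fall of Rplp0 in the cytosolic stalk.

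The mitochondrial ribosomal protein genes split in both directions at the first site, with more higher in retina than lower. Of 61 members 23 were higher, 11 lower and 27 did not pass (limma, adjusted p under 0.05), beside 21.9% higher and 25.2% lower of all probe sets. Those shares are with centring. Without centring the arrays, 16 members were higher and 4 lower, with a median of 0.14 against 0.03 over all probe sets. The median difference with centring was 0.06, or 0.11 over the 57 members above the controls, against -0.05 over all probe sets. Counted by symbol, both subunits took part, with 15 of 40 large-subunit members higher and 6 lower, and 8 of 21 small-subunit members higher and 5 lower. These 5 include Mrps18a, whose protein sits in the large subunit despite its symbol. The largest difference was 2.13-fold.

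Mrpl54, a large-subunit protein, had the largest rise. It read 142.1, 150.1, 146.4, 142.9 and 152.4 on the retina arrays of the first site and 59.05, 47.15, 56.33, 68.73 and 77.48 on the cortex arrays. The lowest retina array was well above the highest cortex array (2.13-fold, log2 1.09 ± 0.12 SE, limma adjusted p = 7.3e-07). Site 2 gave 175.1, 201.9 and 256.1 in retina and 88.46, 64.55 and 118.0 in cortex. Again the groups did not overlap, and the difference was 1.08 (limma adjusted p = 0.0027).

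Mrpl2, which lies beside the catalytic centre of the large subunit, read 217.1, 219.1, 204.9, 217.9 and 191.3 in retina and 119.5, 94.52, 95.02, 124.3 and 97.60 in cortex of the first site. No array overlapped (log2 0.90 ± 0.10 SE, limma adjusted p = 1.2e-06), and at site 2 the difference was 1.19 (limma adjusted p = 0.00024). Mrps14, of the small subunit, read 881.7, 830.5, 817.9, 854.3 and 789.3 in retina and 522.7, 476.7, 423.3, 452.0 and 428.5 in cortex. Its groups were separate at both sites, with differences of 0.85 ± 0.07 SE and 0.95 ± 0.14 SE (limma adjusted p = 5.2e-08 and 0.00059).

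Other mitochondrial members were higher in retina at the first site by smaller steps. In the large subunit Mrpl24 was 1.68-fold higher, Mrpl39 1.42-fold and Mrpl38 1.35-fold, and all 3 were called at site 2 too, with differences of 0.90, 0.76 and 0.79. Of the small subunit, Mrps31 was 1.56-fold, Mrps11 1.54-fold and Mrps12, the counterpart of the bacterial decoding protein S12, 1.49-fold higher. At site 2 Mrps11 reached 2.26-fold (log2 1.17, limma adjusted p = 0.0002), whereas Mrps12 at 0.60 and Mrps31 at 0.31 did not pass, although without cortex replicate 2 of that site they were 0.57 and 0.49 and did. Mrps7 rose 1.43-fold and Mrpl58, a ribosomal protein that can free stalled peptides, by log2 0.35, and both were called at site 2.

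The members lower in retina were led by Mrps15. Its retina arrays of the first site read 68.53, 63.33, 71.74, 79.65 and 56.53 and its cortex arrays 102.6, 98.59, 115.8, 134.7 and 138.2. The ranges were separate (1.60-fold, log2 -0.68 ± 0.13 SE, limma adjusted p = 0.00024), as they were at site 2, where retina read 76.55, 100.8 and 89.37 and cortex 180.4, 130.6 and 195.4 (log2 -0.82, limma adjusted p = 0.0098). Mrpl35 read 182.7, 218.4, 207.7, 205.4 and 137.3 in retina and 284.9, 270.2, 316.6, 358.5 and 322.2 in cortex. It was lower on all retina arrays (log2 -0.67, limma adjusted p = 0.00016), and at site 2 by -0.73, or -0.48 without cortex replicate 2, which read 670.7 against 322.0 and 335.3 on the other cortex arrays. The site 2 call of Mrpl35 was lost in 7 of the settings tried. Mrpl52 fell 1.52-fold, Mrps24 1.49-fold, Mrpl33 1.40-fold, Mrps17 1.31-fold and Mrpl37 1.25-fold. Of these 5 Mrpl33 alone passed at site 2, at -0.65, a call lost in 4 settings. Mrps18a, which carries a small-subunit symbol although its protein sits in the large subunit, was lower at both sites on its representing probe set, by -0.43 and -0.60. Its other probe sets above the controls did not show this at site 2, where one read 582.1 in retina and 463.5 in cortex, a difference of 0.34 that did not pass (limma adjusted p = 0.17). With all its probe sets averaged, Mrps18a differed by -0.18 and -0.07 and passed at neither site, and its site 2 call was lost in 7 settings in all.

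**Figure D2:**
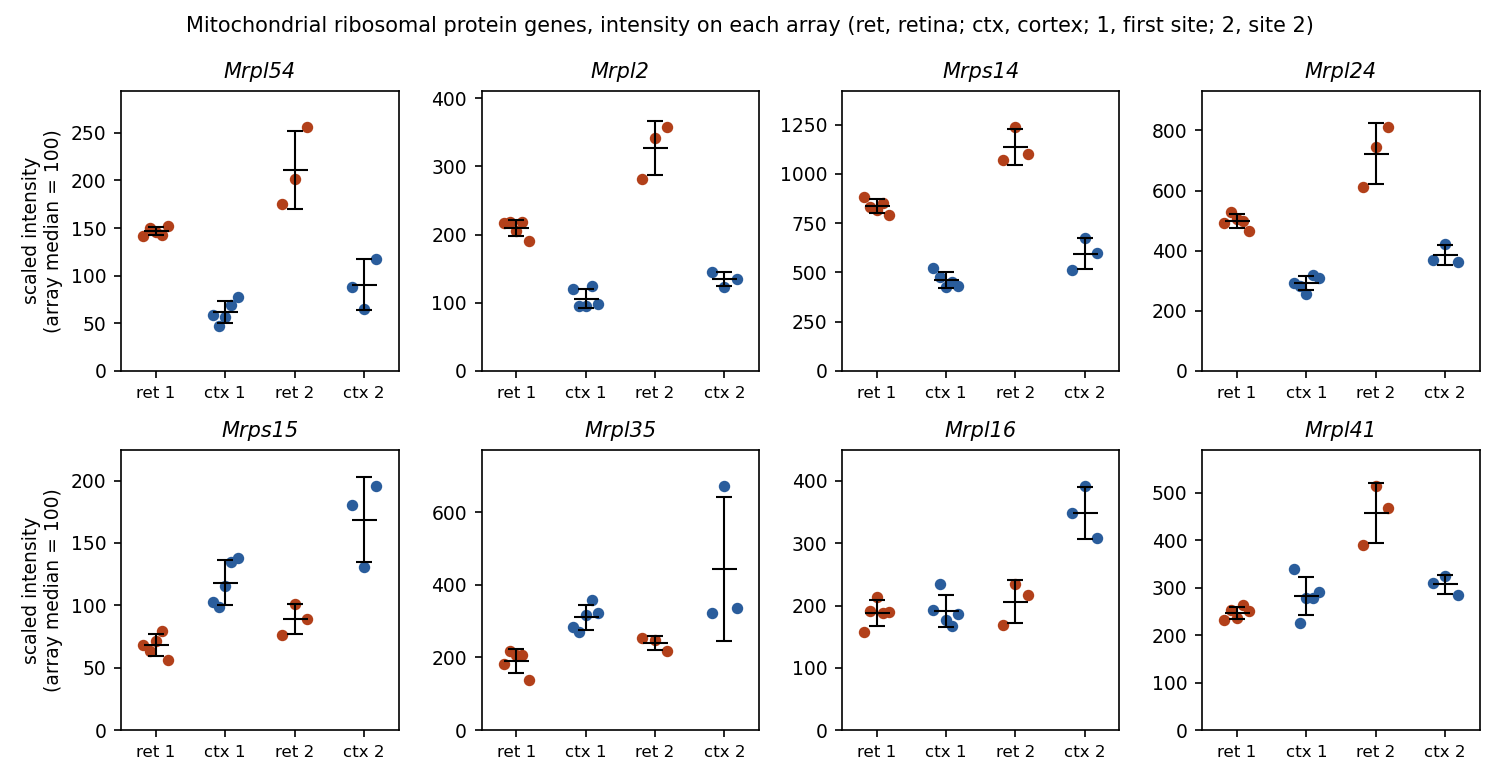
Scaled intensity (linear axis from 0, array median 100) of 8 mitochondrial members on each of the 16 arrays, by tissue and site; points are arrays, bars the mean and SD. Mrpl54, Mrpl2, Mrps14 and Mrpl24 are higher and Mrps15 and Mrpl35 lower on every retina array at each site, Mrpl16 is high in the cortex of site 2 at 307.5 to 391.2, and Mrpl41 in its retina at 390.8 to 514.0.

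At site 2, 19 mitochondrial members were higher, 5 lower and 37 did not pass (limma, adjusted p under 0.05), beside 16.7% and 15.9% of all probe sets. With 1 probe set per gene 20.1% were higher and 17.9% lower, and of the probe sets above the controls on all 16 arrays 22.6% and 20.2%. The median was 0.27, against -0.02 over all probe sets. Of the first site's 23 higher calls 15 were called again, among them Mrpl2, Mrpl24, Mrpl54, Mrps11 and Mrps14, and all 23 had a positive difference. Of its 11 lower calls 4 were called again, those of Mrpl33, Mrpl35, Mrps15 and Mrps18a, and 6 had a negative difference. No member was called in opposite directions at the sites. Both sites measured the same pools, and no matching repeat counts over all probe sets are given here. These counts therefore do not set the members apart from other genes. Without cortex replicate 2 of site 2 the counts were 23 higher and 5 lower, the median 0.19 against 0.15 over all probe sets, and 18 higher and 4 lower calls were shared with the first site. Without retina replicate 3 of site 2, 12 were higher and 4 lower, and the count lower was 1 without retina replicate 1 and 3 without retina replicate 2 or cortex replicate 3. The shares of all probe sets fell too, to 12.6% higher and 12.6% lower without retina replicate 3. Those lower were 12.1% without retina replicate 1, 12.3% without retina replicate 2 and 14.0% without cortex replicate 3.

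**Figure D3:**
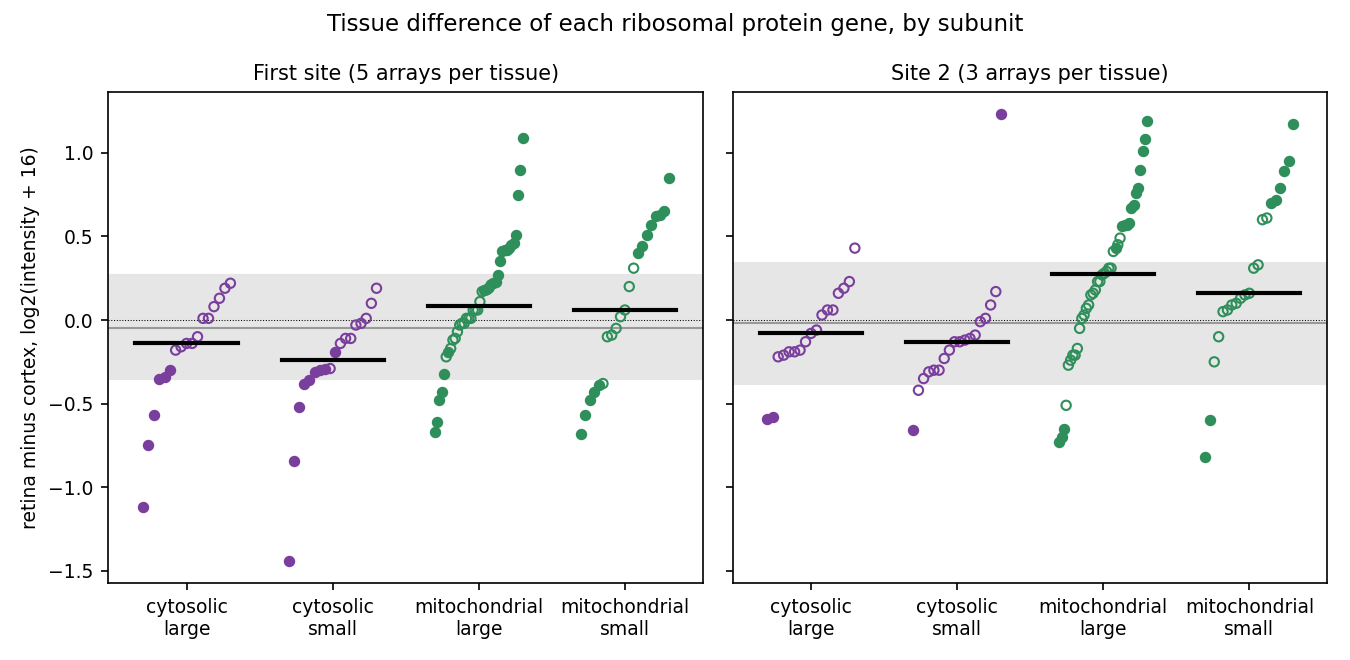
Retina minus cortex difference of every member in log2(intensity + 16), by subunit, at the first site (left) and site 2 (right); filled points passed limma's adjusted p under 0.05, black bars are medians, and the grey band and line give the quartiles and median of all probe sets. No filled cytosolic point is above 0 at the first site, while mitochondrial points reach 1.09 above and -0.68 below.

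**Figure D4:**
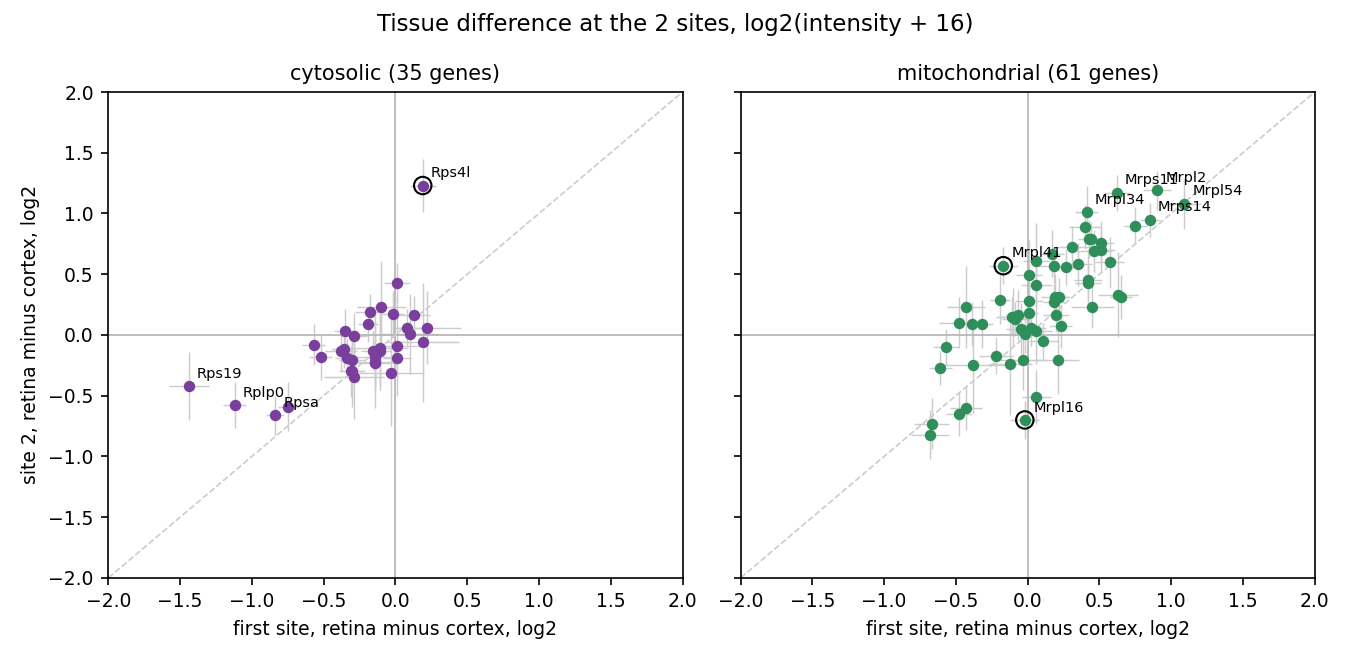
Retina minus cortex difference at the first site (x) against site 2 (y), both in log2(intensity + 16), for 35 cytosolic and 61 mitochondrial members, with standard errors in grey and a dashed line of equality. Circled genes, Rps4l, Mrpl41 and Mrpl16, passed the test of the difference between sites, and Rps19 lies at -1.44 and -0.42.

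Whether the tissue difference itself differed between sites was tested in a fit of all 16 arrays. It did so for 3 of 96 members (limma, adjusted p under 0.05), against 3.36% of all probe sets, and for 1 without retina replicate 3 and 6 without cortex replicate 2 or 3 of site 2. Rps4l had an interaction of 1.04 ± 0.21 SE (limma adjusted p = 0.008). Mrpl41, a large-subunit protein, read 390.8, 514.0 and 468.4 in the retina of site 2 against 231.2 to 262.8 in that of the first site, and 285.8 to 325.2 against 225.4 to 338.8 in cortex. Its retina was thus high at site 2 alone, with an interaction of 0.74 ± 0.17 SE (limma adjusted p = 0.016), which did not pass without retina replicate 2 or 3 of that site. Mrpl16 read 347.9, 391.2 and 307.5 in the cortex of site 2 against 167.5 to 234.1 in that of the first site, and 168.0 to 233.8 against 156.8 to 213.8 in retina. Here the cortex was high at site 2, with an interaction of -0.68 ± 0.18 SE (limma adjusted p = 0.039), which passed in 10 of the 25 settings tried. For Rps19 the interaction of 1.01 ± 0.31 SE did not pass (limma adjusted p = 0.074). Rplp0, at 0.53, passed only without cortex replicate 2 of site 2 or with a pseudocount of 50. Without centring the median interaction over all probe sets moved from 0.04 to -0.10, and relative to it the cytosolic median stayed at 0.06 and the mitochondrial at 0.13.

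The same retina RNA read higher at site 2 than at the first site for many mitochondrial members. In retina 35 of 61 were higher at site 2 and 4 lower, and of the cytosolic members 9 of 35 were higher and 2 lower, against 23.2% and 12.5% of all probe sets (limma, adjusted p under 0.05). Medians were 0.39 for mitochondrial and 0.08 for cytosolic members, and 0.04 for all probe sets. Of the probe sets above the controls on all 16 arrays, 32.7% were higher and 16.9% lower, with a median of 0.14. The cytosolic share higher, 25.7%, was below the first of these. After quantile normalization the mitochondrial split was 21 higher and 7 lower and the cytosolic 7 higher and 5 lower. Relative to the median of all probe sets, their medians were then 0.23 and 0.06. The share of all probe sets called under that setting is not given here, and the shares above are those with centring. In cortex 9 mitochondrial members were higher and 3 lower, with 1 cytosolic member each way, against 10.3% and 6.4% of all probe sets. Of those above the controls on all 16 arrays, 13.8% were higher and 9.19% lower. After quantile normalization 7 mitochondrial members were higher in cortex and 4 lower, with a median 0.08 above that of all probe sets. Without cortex replicate 2 of site 2 the cortex counts were 25 higher and 2 lower for mitochondrial and 2 higher and 11 lower for cytosolic members, beside 17.5% higher and 22.5% lower of all probe sets. Mitochondrial members higher in cortex were 4 without cortex replicate 3 of site 2 and 5 without cortex replicate 3 of the first site, and either omission gave 2 cytosolic members lower. Of all probe sets these omissions left 8.79% and 7.76% higher and 5.17% and 5.23% lower. The cytosolic count higher in retina was 4 without retina replicate 2 or 3 of site 2 and 14 without its cortex replicate 2, and the count lower 1 without its retina replicate 3 and 4 without its cortex replicate 2 or 3. Of all probe sets 17.3%, 17.8% and 27.5% were higher without retina replicate 2, retina replicate 3 and cortex replicate 2. Those lower were 9.29% without retina replicate 3, 15.9% without cortex replicate 2 and 13.0% without cortex replicate 3. Both comparisons set the same pools against each other, so the differences are between sites and not between tissues.

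Among the members, Mrpl3, a core protein of the large subunit, was lower at site 2 in both tissues. It read 425.0, 432.3, 410.5, 449.5 and 453.2 in the first site's retina and 281.4, 238.5 and 230.3 in that of site 2 (log2 -0.77 ± 0.13 SE, limma adjusted p = 0.00011). In cortex it fell by 0.61 on the log2 scale (limma adjusted p = 0.0026), and within each site its tissue difference did not pass. Mrps24 rose by 0.75 in retina, Mrpl16 by 0.80 and Mrpl46 by 0.77 in cortex. Mrpl50 rose by 0.97 in retina on its representing probe set, while its only other probe set above the controls on all 16 arrays changed by 0.08 (limma adjusted p = 0.77). Of the cytosolic members, Rps19 was 0.95 higher and Rpl37a lower by -0.54 in retina, and Rpl13a 0.48 higher and Rps27 lower by -0.51 in cortex. The retina fall of Rps19 relative to cortex was therefore measured against a retina signal that itself differed 1.93-fold between sites.

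To compare the ribosomes on each array, the median centred value of the mitochondrial members was taken from that of the cytosolic members. Over all members this gap averaged 2.16 ± 0.25 over the first site's retina arrays and 3.22 ± 0.13 over its cortex arrays (SD, n = 5 each), while site 2 gave 2.26 ± 0.11 and 2.72 ± 0.38 (SD, n = 3 each). The gap was smaller on every retina array than on every cortex array of its site, by 1.06 and 0.45 on average. The site 2 difference of -0.45 became -0.18 without like-named genes and -0.23 without cortex replicate 2. The size of the first value depends on the members taken, because the cytosolic median falls between dim and bright probe sets. For members above the controls on all 16 arrays, a choice made after the data were seen, the gaps were 3.32 ± 0.08 and 3.69 ± 0.07 at the first site and 3.24 ± 0.10 and 3.68 ± 0.27 at site 2 (SD). On these the retina arrays again lay below the cortex arrays of both sites without overlap, and the first site's difference was -0.37. With the mean over members in place of the median it was -0.35, and with all probe sets of each gene averaged -0.13. At the first site the gap differed on the cytosolic side, 4.65 ± 0.11 in retina against 4.98 ± 0.11 in cortex, with mitochondrial medians of 1.33 ± 0.08 and 1.28 ± 0.10. The median difference there was -0.30 over these cytosolic members and -0.16 over the brightest 5 percent of all probe sets. With quantile normalization it was -0.07 over all cytosolic members, and the gap difference over all members was -0.96. How far the gap follows brightness was not tested. At site 2 the cytosolic medians were 4.97 ± 0.19 and 5.08 ± 0.11 and the mitochondrial 1.72 ± 0.18 and 1.39 ± 0.21 (SD, n = 3 each), and the arrays of both pairs overlapped.

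**Figure D5:**
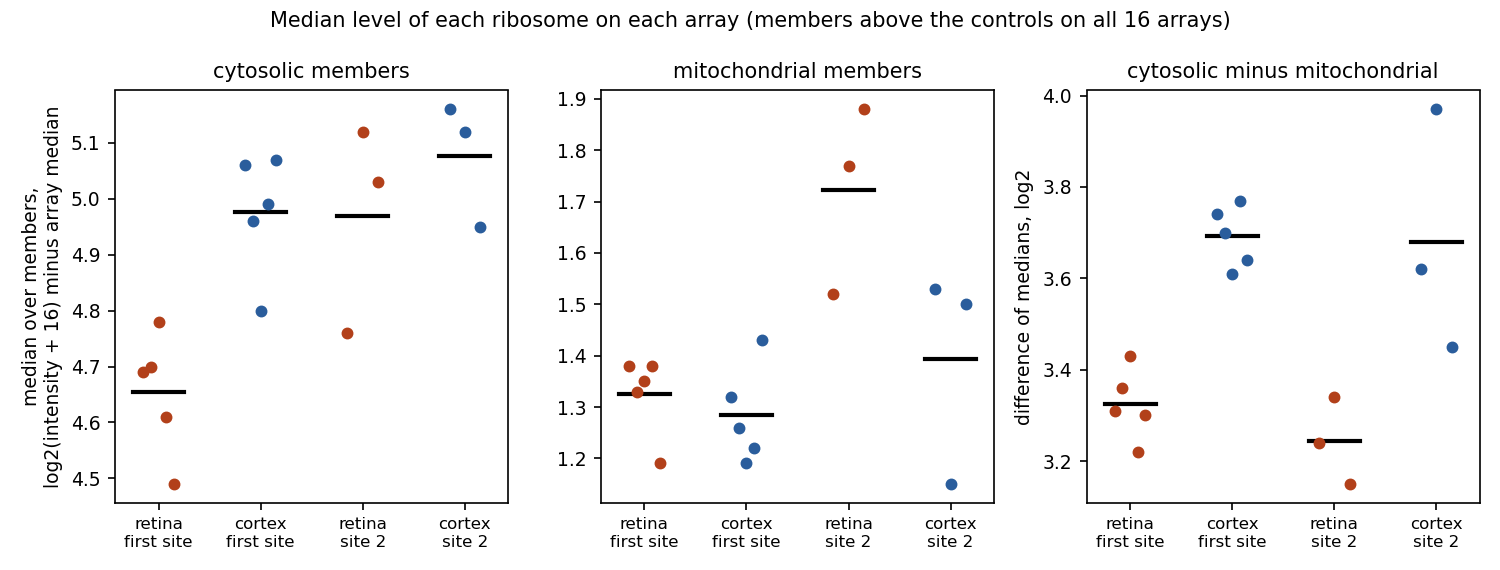
Median over the 25 cytosolic members (left), the 57 mitochondrial members (middle) and their difference (right) on each array, in log2(intensity + 16) relative to the array median, for members above the controls on all 16 arrays; points are arrays and lines group means, and the axes do not start at 0. In the right panel retina arrays lie at 3.15 to 3.43 and cortex arrays at 3.45 to 3.97.

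Other genes of the translation pathway were followed through 8 lists. Their counts stand beside 25.2% lower and 21.9% higher of all probe sets at the first site, and 15.9% and 16.7% at site 2. With 1 probe set per gene, as the lists were counted, the shares were 28.0% lower and 25.5% higher, and 17.9% and 20.1%. Ribosome biogenesis, the nucleolar work of making rRNA and joining it with ribosomal proteins, had 23 of 41 measured genes lower in retina at the first site and 2 higher, with a median of -0.32, and 12 lower and 4 higher at site 2. Bysl, needed for small-subunit assembly, averaged 315 ± 36.7 on retina arrays against 836 ± 74.9 on cortex arrays (SD, n = 5), a log2 difference of -1.36, and Nhp2, a protein of the pseudouridine-forming snoRNPs, fell by 1.19 on the log2 scale. Taf1a, a subunit of the RNA polymerase I selectivity factor, was higher by 1.00 and Surf6 by 0.41. Proliferation markers moved in the same direction as the list, with 6 of 8 lower, and their part was not tested.

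Cytosolic initiation factors had 14 of 34 lower and 1 higher at the first site, with a median of -0.20, and 5 lower and 1 higher at site 2. The site 2 count lower was near the share of all probe sets, 15.9%. Eif3a, the scaffold of initiation factor 3, differed by -1.32 and Eif2s2, a subunit of the factor that brings the initiator tRNA, by -0.93, while Eif1a was 0.63 higher. Elongation and release factors gave 3 lower and 1 higher of 10, with Abce1, the ribosome recycling factor, at -1.09, Etf1, the release factor, at -0.57, and Eef1a2, the elongation factor of mature neurons and muscle, at 0.46, and at site 2 the counts were 2 and 1. Cytosolic aminoacyl tRNA synthetases gave 8 lower and 3 higher of 19, led by Vars at -0.99, but 1 lower and 2 higher at site 2. Signalling genes gave 3 each way of 11, and 2 lower and 1 higher at site 2. At the first site Mycn averaged 118 ± 8.01 on retina arrays against 478 ± 60.6 on cortex arrays (SD, n = 5), and Myc was above the controls on no retina array and read 147 ± 14.2 in cortex. Yy1 was 0.74 and Ppargc1a, a coactivator of mitochondrial genes, 0.61 higher in retina.

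On the mitochondrial side 5 of 13 translation and transcription factors were higher in retina and 1 lower at the first site, and at site 2 only Gfm1 passed. Mterf3, a mitochondrial transcription and ribosome assembly factor, was 0.94 and Gfm1, the mitochondrial elongation factor G, 0.83 higher at the first site. The call lower was that of Tfam, at or under the controls on every retina array there. Of 5 mitochondrial aminoacyl tRNA synthetases 2 were higher, Rars2 by 0.69 and Iars2 by 0.29, and 0 lower, and at site 2 these were 3 and 0. Among ribosomal proteins with other names, 1 of 3 was called, Dap3 of the mitochondrial small subunit at -0.31 at the first site. At site 2 Dap3 differed the other way, by 0.55, without passing (limma adjusted p = 0.12), and its interaction of 0.86 did not pass (limma adjusted p = 0.054). Against these counts stand 21.9% higher and 25.2% lower of all probe sets at the first site, and 16.7% and 15.9% at site 2. With 1 probe set per gene the shares were 25.5% and 28.0%, and 20.1% and 17.9%.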

How the data were processed

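Total RNA of 2 tissue pools was measured on 16 Affymetrix arrays. The values are the probe set intensity on a linear scale, as the authors deposited it in the series matrix; how probes were summarised and scaled is not stated in the labels or file used. Genes came from GEO's platform annotation, with 10817 of 10833 single-symbol probe sets matched to current symbols through RefSeq; 396 probe sets list several symbols and 1193 none.

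A pseudocount of 16 was added, log2 taken and each array centred on its median. limma 3.58.1 in R 4.3.3 (lmFit, eBayes with trend, two-sided) was fitted over 12422 probe sets, leaving out 66 control probe sets, with Benjamini-Hochberg adjustment over all of them and a threshold of 0.05. Each site's tissues were compared on that site's arrays, and sites and the interaction in a fit of all 16. Fold changes are on the log2(intensity + 16) scale and understate changes of dim probe sets. The number of arrays limits the precision. The test was checked on simulated data. Members and lists were chosen with earlier results of these data known.

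Members were named by rule: in each subunit up to 5 per direction with the largest called difference at the first site and no overlap of arrays, the member of highest mean, interaction calls, the 2 largest site differences per direction, tissue and ribosome, and like-named pairs; other members named were chosen after their values were seen. Of the other lists up to 2 genes per direction were named. Alternatives covered the pseudocount, centring, normalization, filters, trend, replicate number, averaging of probe sets and leaving out each array. Replicate numbers did not pair the arrays: deviations of same-numbered retina and cortex arrays correlated at -0.187 to 0.080. Promoter sequences are from RefSeq (GRCm38.p6); members without an entry are not shown.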

Additional observations from a re-analysis of the deposited data

Results flagged for a closer look

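Within groups of 5 arrays, 4 of 106 member values tested stood apart from the others, where chance gives about 1 in 20 groups. Mrpl37 read 230.7 on retina replicate 5 of the first site against 202.7 to 210.0 on the other retina arrays. Rpl6 read 3008 on cortex replicate 3 of the first site against 3595 to 3811, and Rpl7l1 read 74.96 on cortex replicate 2 against 92.5 to 98.68. Rps27l, at or under the controls on 13 of the 16 arrays, read 18.21 on cortex replicate 5 against 3.32 to 7.22.

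The tissue difference differed between the sites for 3 members by the interaction test in limma. It was larger at site 2 by 1.04 for Rps4l (adjusted p = 0.008) and by 0.74 for Mrpl41 (adjusted p = 0.016), and lower by -0.68 for Mrpl16 (adjusted p = 0.039). Rps4l passed in 24 of 25 settings, the exception being arrays without centring, and Mrpl41 in 22. On the other probe set of Rps4l above the controls the interaction was 0.08 (limma adjusted p = 0.94).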

How the results depend on the processing

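Of 1786 values of single named genes under the alternatives, 1698 kept their direction and side of the threshold, 72 no longer passed, 15 newly passed and 1 turned direction (Rps4x at the first site, 0.01 with all probe sets of the gene averaged). Without centring, the first site had 6 cytosolic and 4 mitochondrial members lower, and all counts at site 2, between sites and for the interaction were 0. Shares of all probe sets called without centring or with quantile normalization are not given here. Quantile normalization gave 1 cytosolic member higher at the first site; in retina between sites 5 cytosolic lower, 21 mitochondrial higher and 7 lower; and in cortex 3 cytosolic each way. At site 2, cytosolic members higher were 2 with probe sets above the median signal or all 16 arrays in one fit, and without the intensity trend 1 cytosolic and 3 mitochondrial members were lower. Between sites in retina, cytosolic members lower were 4 with a pseudocount of 1, with scaling before the pseudocount or with all probe sets of a gene averaged, and mitochondrial lower were 2 with the last. In cortex, cytosolic members lower were 3 with a pseudocount of 50 and 2 with the signal filter, and 2 each way with averaging. The replicate block (not supported by the pairing check) gave 1 cytosolic member lower in retina and 2 higher in cortex between sites; at the first site it gave 14 cytosolic lower, 23 mitochondrial higher and 10 lower. The first site's gap difference of -1.06 became -0.13 with averaging, -0.35 with the mean over members, -0.41 without like-named genes and -0.37 for members above the controls, an alternative chosen after seeing the data.

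Leaving out 1 array at a time, first-site counts ran over 0 to 1 cytosolic higher, 14 to 16 lower, 21 to 24 mitochondrial higher and 10 to 11 lower; site 2 counts over 1 to 3, 0 to 4, 12 to 23 and 1 to 5; retina between sites over 4 to 14, 1 to 4, 24 to 38 and 3 to 6; and cortex over 1 to 2, 1 to 11, 4 to 25 and 2 to 4. Interaction calls ran from 1 to 6, and the gap differences from -1.12 to -0.99 and -0.57 to -0.23. Causes were not tested. Intensities near the controls limit the 14 dim members.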

Other observations

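The 39 probe sets that list a cytosolic ribosomal protein gene with pseudogenes or other genes cannot be given to 1 gene. At the first site 22 of them were lower in retina and 0 higher (limma, adjusted p under 0.05), with a median of -0.24. The share lower was 56.4%, beside 25.2% of all probe sets and 45.8% of the brightest 5 percent, of which 21.9% and 30.9% were higher. At site 2, 4 were lower and 0 higher, with a median of -0.08. That share lower, 10.3%, was below the 15.9% of all probe sets, of which 16.7% were higher. Of the 5 such mitochondrial probe sets 2 were higher and 1 lower at the first site, and 2 higher and 0 lower at site 2.

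Among the 29 further probe sets of members, 14, from 11 genes, were above the controls on all 16 arrays. At the first site 3 of these 14 were called together with the probe set that represents the gene, all in the same direction. For 5 the representing probe set alone was called, and for 2 the further probe set alone. No gene had probe sets called in opposite directions.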
